A study of Rattus norvegicus with 20 samples.

Results

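The 20 arrays of red tibialis anterior muscle were divided by a clock score into a high set of 10 arrays and a low set of 10 arrays, and the genes that differed between the sets within the labelled groups are described here. The arrays were chosen by measured values. On each array the log2 values of the activators Bmal1, Npas2 and Clock were averaged, and the average of Per1, Per2, Per3 and Dbp was taken from it. The mean of this score over the array's labelled group was then subtracted. The 10 highest deviations made the high set and the 10 lowest made the low set, so that all 20 arrays of the series were used. A set is therefore not a labelled condition, a time point or a treatment. A difference between the sets says only that a gene varied together with the 7 score genes among rats that carried the same label.

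The muscle came from male rats of the strain labelled Zucker, housed singly under reversed lighting of 12 h light and 12 h dark with free access to food. The housing notes call the rats ZDF (Zucker diabetic fatty, a line prone to diabetes), whereas the study's methods set lean control rats apart from ZDF rats. Lean control rats received standard chow, and obese rats received a stock diet for 6 weeks. The 2 further groups carry the labels rosiglitazone, an agonist of the fatty acid receptor PPAR gamma, and resveratrol, a plant polyphenol. Each of the 4 groups had 5 arrays from separate rats. For the drug groups the labels do not say whether the rats were lean or obese. They give no dose, no duration of treatment and no hour of tissue collection, and they do not say when a rat last ate. Hour, feeding and the clock score therefore cannot be told apart in these arrays.

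In the circadian clock, the proteins of Bmal1 with Clock or Npas2 bind E-box sequences and activate the Per and Cry genes and output genes such as Dbp. The Per and Cry proteins then repress that activation, and the nuclear receptors of the Rev-erb and ROR families feed back on Bmal1. Transcripts of Bmal1 and of Dbp or the Per genes consequently peak at nearly opposite hours in most tissues. Skeletal muscle holds such a clock, and it is known for daily rhythms in genes of fuel choice, which are also set by feeding and fasting.

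The score deviations of the high set ran from 0.15 to 1.39 log2 units with a median of 0.87, and those of the low set ran from -1.56 to -0.47 with a median of -0.71. The array just inside the high set was resveratrol 5 at 0.15, and the array just outside it was lean control 5 at -0.47. The high set held 2 lean control, 2 obese, 3 rosiglitazone and 3 resveratrol arrays, and the low set held the other 3, 3, 2 and 2. The gap between the mean deviations of the sets was 1.81 in lean control, 1.90 in obese, 1.93 in rosiglitazone and 1.37 in resveratrol rats. Every labelled group was thus represented in both sets, with the narrowest gap under resveratrol.

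**Figure D1:**
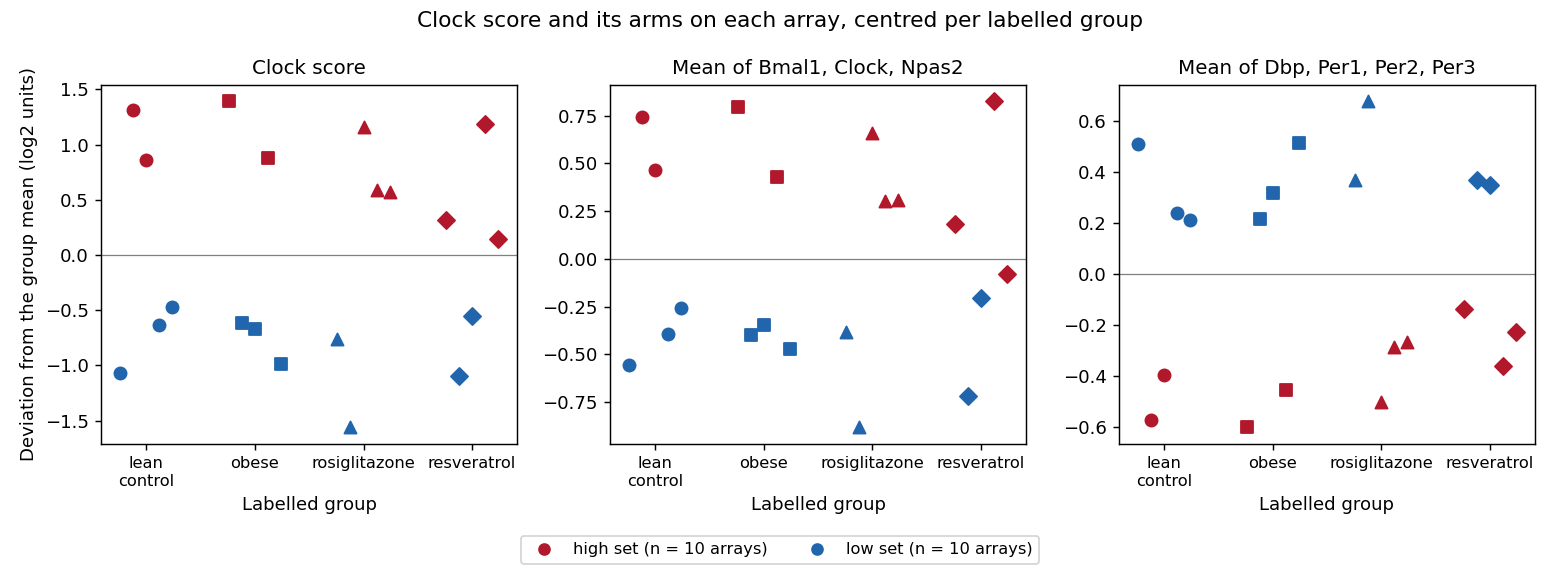
Deviation of the clock score (left) and of its arms (middle and right) from the mean of the labelled group, in log2 units, for each of the 20 arrays; red points are the high set and blue points the low set. Resveratrol 5, the lowest red point on the left at 0.15, is also the red point below 0 in the middle panel.

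The score genes are given as a description, since they made the split. Bmal1, the partner that Clock and Npas2 share, contributed most. Its values centred on the group mean ran from -0.15 to 2.09 in the high set with a median of 1.12, and from -2.21 to -0.49 in the low set with a median of -1.01. Its mean level was 6.04 log2 units in the high set and 3.73 in the low set. Dbp, a transcription factor driven directly by the clock, moved the opposite way. Its centred values ran from -1.55 to -0.40 in the high set and from 0.41 to 1.48 in the low set, with medians of -0.75 and 0.79. The sets did not overlap for either gene, whereas they overlapped for each of the other 5. Mean centred values in the high set were 0.17 for Clock, 0.15 for Npas2, -0.33 for Per3, -0.21 for Per2 and -0.14 for Per1. The split came out the same, with 0 arrays changing sets, when either arm was used alone or any 1 of the 7 genes was left out.

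The promoter of Bmal1 and that of Per2 are shown because each held a sequence through which the loop is known to be wired. The windows come from RefSeq on build GRCr8, and they cover the 250 bases before and the 50 bases after the transcript start that the table uses. The ROR response element, searched as ANTAGGTCA on both strands, lies in the Bmal1 window with its first base at -18, chr1:176766300-176766327, plus strand. The D-box, searched as TTATGTAA on both strands, lies in the Per2 window at -192, chr9:99497168-99497195, minus strand. Capitals mark the motif.
Bmal1: gaaggcagaaAGTAGGTCAgggacggag
Per2: catgtgcgtcTTATGTAAagagagcgac
The first motif was present in 0.63% and the second in 0.881% of the 27457 promoters in the table. None of the 7 score genes held the E-box CACGTG within its window, and it was present in 6.65% of all promoters. A match is a run of letters and not a measured binding site.

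Of 14550 genes tested besides the score genes, 87 differed between the sets at an adjusted p under 0.05, which is 0.598% of the genes and is termed called below. Of these, 48 genes, or 0.330%, were higher in the high set and 39 genes, or 0.268%, were lower. The test was limma on the deposited log2 values with the labelled group as a term, and p-values were adjusted by the Benjamini-Hochberg method over all 14550 genes. At an unadjusted p under 0.05 there were 1288 genes against 727.5 expected. The median difference over all genes was -0.00 log2 units and 49.5% of differences were positive. The deposited normalisation gives arrays a common distribution, so this balance does not bear on total expression. Group-centred values of the sets did not overlap for 16 genes, 0.110% of those tested, and 15 of these were called. The remaining gene of the 16 was Wdr1, with a difference of -0.23 and an adjusted p of 0.0896. Named genes are those selected by the rule given with the methods. Apart from the score genes, every other gene given by name lies outside that rule. Such genes were chosen after their values were seen, also where this is not repeated.

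Among the other members of the clock loop and its outputs, Nfil3 was called and was higher in the high set. Nfil3 encodes a repressor that competes with the Dbp protein for D-box sequences. Its centred values ran from -0.37 to 1.40 in the high set with a median of 0.56, and from -1.13 to 0.22 in the low set with a median of -0.66. In the high set 8 of 10 arrays lay above every low array.
The difference was 1.16 log2 units (SE 0.19, adjusted p = 0.0058), a 2.23-fold change. It was positive in each labelled group, at 1.79 in lean control, 1.27 in obese, 0.92 in rosiglitazone and 0.64 in resveratrol rats. Without the lean control group the adjusted p was 0.165.

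The clock list named 23 genes beside the score genes, and 7 of them had a row of their own in the annotation used. The other 16, among them the Rev-erb genes Nr1d1 and Nr1d2 and the output genes Tef and Hlf, are unnamed here and were not analysed. Of the 7 measured, 1 was called higher and 0 lower, against 0.330% and 0.268% of all genes, with a median difference of -0.05. Bhlhe40, a repressor of E-box transcription, had a difference of -0.62 (SE 0.17, adjusted p = 0.133). Its centred values ran from -0.67 to 0.44 in the high set and from -0.39 to 0.87 in the low set, with medians of -0.39 and 0.30. The sets of Bhlhe40 overlapped broadly. Cry1, which encodes a repressor that acts with the Per proteins, had a difference of 0.28 (SE 0.11, adjusted p = 0.43), and its paralog Cry2 had one of -0.05 (SE 0.08). The remaining members were Wee1, a kinase of the cell cycle, at -0.20 (SE 0.13), Timeless at -0.17 (SE 0.10), and Tob1, an inhibitor of proliferation, at -0.01 (SE 0.09). Adjusted p-values of these 4 genes lay between 0.693 and 0.993. Timeless was near the array medians in brightness, at a mean of 2.35 log2 units.

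Of the 10 called genes with the highest differences, Ucp3, Angptl4 and Trim63 stand on the fasting and fatty acid list. Ucp3, a mitochondrial carrier of muscle that is induced by fatty acids, ran from 0.12 to 1.82 in the high set with a median of 0.77, and from -1.92 to 0.02 in the low set with a median of -0.83. Every high array was thus above every low array. The difference was 1.78 log2 units (SE 0.22, adjusted p = 0.000122), a 3.43-fold change at mean levels of 9.05 and 7.25. It was 2.63 in lean control, 1.43 in obese, 1.58 in rosiglitazone and 1.48 in resveratrol rats. The split accounted for 77.1% of the sum of squares of Ucp3 within groups.

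Angptl4 encodes a secreted inhibitor of lipoprotein lipase. Its centred values ran from 0.01 to 1.63 in the high set with a median of 0.73, and from -1.56 to 0.47 in the low set with a median of -0.95. The sets overlapped, with 7 of 10 high arrays above every low array. The difference was 1.73 (SE 0.25, adjusted p = 0.00092), from 0.82 in rosiglitazone to 2.70 in lean control rats. G0s2, an inhibitor of adipose triglyceride lipase, ran from -0.09 to 1.99 in the high set and from -1.20 to 0.12 in the low set, with medians of 0.49 and -0.62. Its difference was 1.24 (SE 0.22, adjusted p = 0.00731). The top value of G0s2 came from resveratrol 4, far above the other 9 high arrays.

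Pdk4, a kinase that shuts pyruvate out of mitochondrial oxidation, was among the brighter genes, at mean levels of 10.70 and 9.97. It ran from 0.09 to 0.74 in the high set and from -0.76 to 0.14 in the low set, with medians of 0.23 and -0.34. Its difference was 0.67 (SE 0.11, adjusted p = 0.0058). Foxo1, a transcription factor held back by insulin signalling, ran from -0.33 to 0.78 and from -0.72 to 0.12, with medians of 0.37 and -0.34. Its difference was also 0.67 (SE 0.14, adjusted p = 0.0234). The call for Foxo1 was lost, with adjusted p-values of 0.0835, 0.0806, 0.0809 and 0.0659, without lean control 2, lean control 3, rosiglitazone 2 or obese 1 respectively.

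Trim63 and Fbxo32, muscle-specific ubiquitin ligases of atrophy, were higher in the high set. Fbxo30 and Fbxo31, also on the atrophy and autophagy list, were not called, at 0.06 (adjusted p = 0.93) and 0.17 (adjusted p = 0.71). Trim63, known as MuRF1, ran from 0.09 to 1.05 in the high set with a median of 0.33, and from -0.96 to 0.30 in the low set with a median of -0.39. Its difference was 0.81 (SE 0.14, adjusted p = 0.00731). Fbxo32, known as atrogin-1, ran from 0.07 to 0.74 in the high set and from -0.91 to 0.12 in the low set, with medians of 0.21 and -0.27. For Fbxo32 9 of 10 high arrays lay above every low array, and the difference was 0.60 (SE 0.12, adjusted p = 0.0208). This call was lost without lean control 2 (adjusted p = 0.0709), rosiglitazone 2 (0.0579), resveratrol 2 (0.0591) or obese 4 (0.0516).

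**Figure D2:**
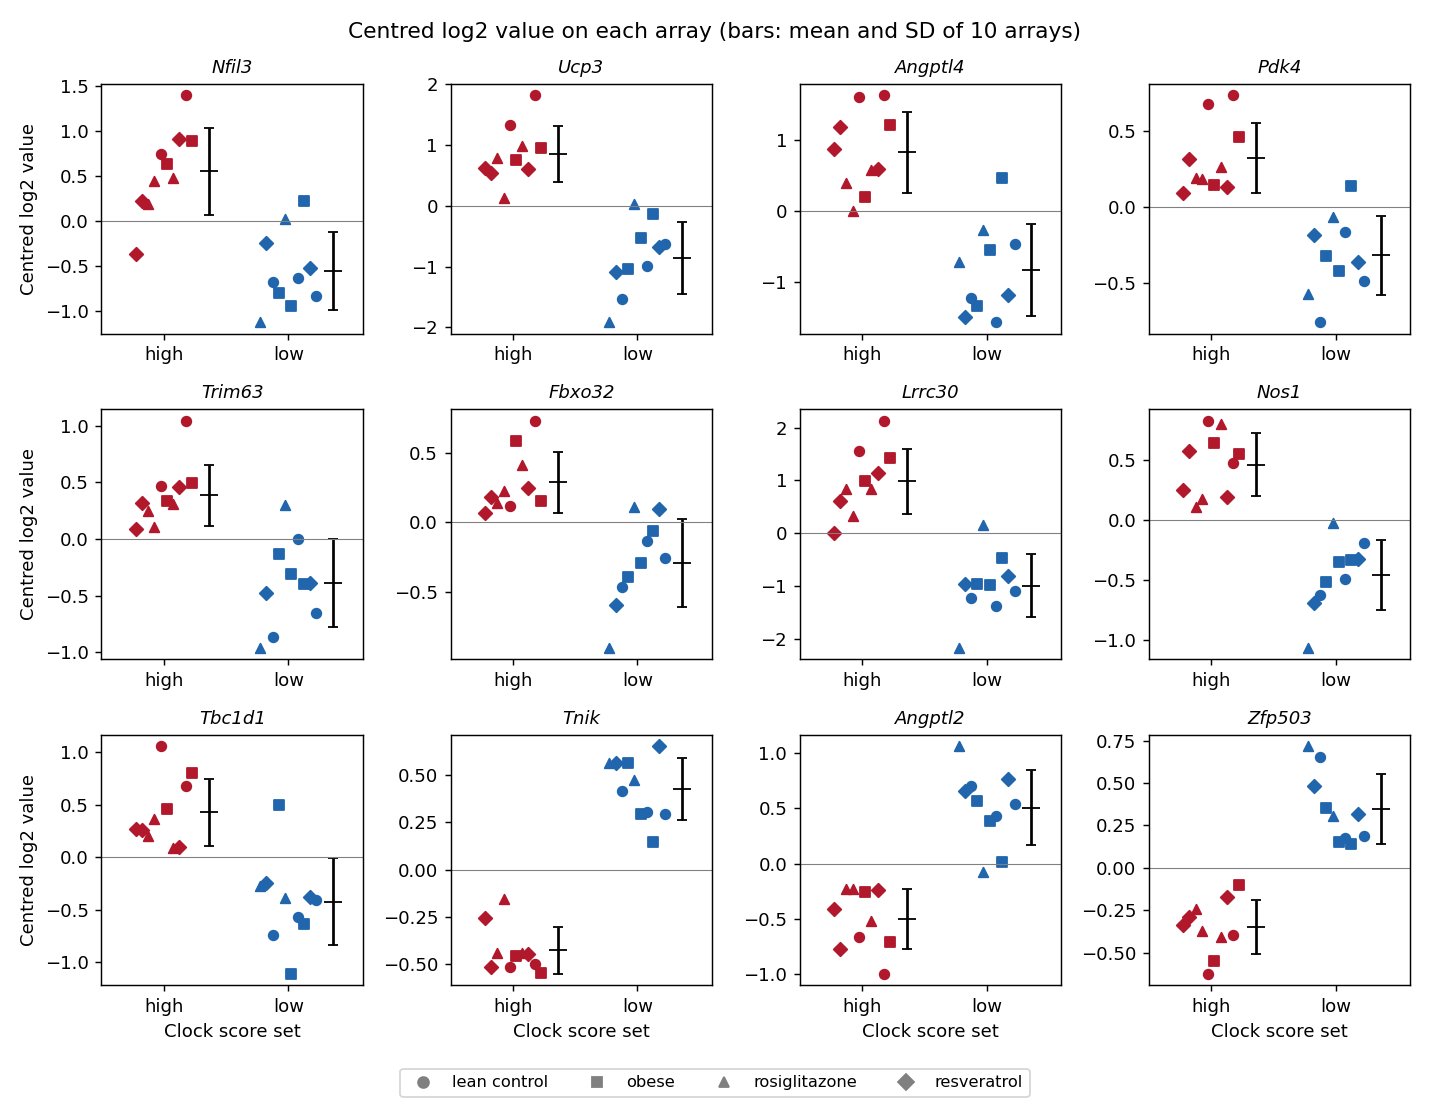
Centred log2 value of 12 named genes on each of the 20 arrays, by clock score set; the shape of a point gives the labelled group, points within a set are ordered by score deviation, and the bars give the mean and SD of 10 arrays. The sets are fully separate for Ucp3, Nos1, Tnik, Angptl2 and Zfp503.

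Counted by list, 6 of the 19 measured members of the fasting and fatty acid list were called higher and 0 lower, and 16 of 19 differences were positive with a median of 0.15. The called members were Ucp3, Angptl4, Trim63, Pdk4, Foxo1 and Fbxo32. Without the lean control group 2 of the 19 were called, which were Ucp3 and Angptl4, and without the obese group Pdk4 was called with them. Cpt1b, which admits long-chain fatty acids to mitochondria, gave a smaller value of 0.20 (SE 0.07, adjusted p = 0.275). The oxidation enzymes Hadha and Acadl were at 0.12 (adjusted p = 0.74) and 0.08 (adjusted p = 0.81). The fatty acid transporter Cd36 was at 0.15 (adjusted p = 0.65). The largest differences among uncalled members were 0.51 for Plin5 (adjusted p = 0.159) and 0.35 for Acot2 (adjusted p = 0.29). The atrophy and autophagy list had 3 of 14 members called higher and 0 lower, with a median of 0.13. Without lean control 2, without rosiglitazone 2, without the resveratrol group or with all rows tested, 1 of the 14 was called. Without the lean control group and without the obese group, 0 of the 14 were called. Trim63, Fbxo32 and Foxo1 stand on both lists, so these counts are not separate evidence. All gene lists were chosen with earlier results of these data known, so the counts by list are a description. Over all genes 0.330% were called higher and the median difference was -0.00.

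Of 20 measured muscle genes known for a daily rhythm, 4 were called higher and 1 lower, against 0.330% and 0.268% of all genes. The median difference of the list was 0.12. Besides Ucp3, Pdk4 and Fbxo32 the called members were Tbc1d1 and Coq10b. Without lean control 2, obese 4 or rosiglitazone 2, 3 of the 20 were called, as without the obese or the rosiglitazone group and with all rows tested. With the 2 highest against the 2 lowest arrays per group 2 of the 20 were called, and without the lean control group 1 was. Tbc1d1, a regulator of the trafficking of the glucose transporter Glut4, ran from 0.09 to 1.06 in the high set and from -1.11 to 0.50 in the low set, with medians of 0.31 and -0.40. Its difference was 0.89 (SE 0.16, adjusted p = 0.00731), although 3 of 10 high arrays alone lay above every low array, because obese 5 of the low set stood at 0.50. Coq10b, which binds coenzyme Q in mitochondria, had a difference of -0.57 (SE 0.12, adjusted p = 0.0223). By group the difference of Coq10b was -0.96 in lean control, -0.88 in obese, -0.44 in rosiglitazone and -0.01 in resveratrol rats. Its values ran from -0.65 to 0.36 in the high set and from -0.07 to 0.54 in the low set. Coq10b lost its call without lean control 2 (0.0709), lean control 3 (0.0792), rosiglitazone 2 (0.0573), obese 1 (0.0678) or obese 4 (0.0516). It is named from the list and lies outside the rule. Pfkfb3, an activator of glycolysis, had the lowest difference of the list at -1.04 (SE 0.27, adjusted p = 0.104) and was not called.

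Lrrc30, a leucine-rich repeat gene, had the largest difference among the genes named by the rule. It ran from 0.01 to 2.13 in the high set with a median of 0.91, and from -2.17 to 0.15 in the low set with a median of -0.97. All but 1 of the high arrays were above every low array. Its mean level was 6.11 in the high set and 3.96 in the low set, and the difference was 2.06 log2 units (SE 0.24, adjusted p = 0.000122), a 4.16-fold change. Within the groups it ran from 1.48 in resveratrol to 3.07 in lean control rats.

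Nos1, the neuronal nitric oxide synthase that muscle fibres carry at the sarcolemma, was fully separate between the sets. It ran from 0.11 to 0.83 in the high set and from -1.07 to -0.02 in the low set, with medians of 0.52 and -0.42. The difference was 0.96 (SE 0.12, adjusted p = 0.000133), and it varied little among the groups, from 0.85 to 1.09. Tnfrsf12a, the receptor of the cytokine TWEAK, ran from 0.13 to 0.77 and from -1.43 to 0.15, and its difference was also 0.96 (SE 0.17, adjusted p = 0.00679). For Tmem140, a membrane protein gene, the values were 0.05 to 0.73 and -1.38 to 0.11, and the difference was 0.84 (SE 0.15, adjusted p = 0.00731). In both of these the lowest value of the low set came from rosiglitazone 2, the array with the lowest score deviation.

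Some called genes outside the rule are named after their values were seen. Gpat3, an enzyme of the first step of triglyceride assembly, had the smallest p among the genes higher in the high set. It ran from 0.19 to 0.62 in the high set and from -0.67 to 0.02 in the low set, and the difference was 0.79 (SE 0.07, adjusted p = 4.1e-06). The split accounted for 90.8% of its sum of squares within groups. Asb2, which guides a ubiquitin ligase to its substrates in muscle, and Chd7, a chromatin remodeller, were likewise separate between the sets, with differences of 0.63 (SE 0.10, adjusted p = 0.00298) and 0.67 (SE 0.09, adjusted p = 0.000695).

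Among the genes lower in the high set, Tnik gave the smallest p of all 14550 genes. Tnik encodes a kinase of the germinal centre kinase family. Its centred values ran from -0.55 to -0.16 in the high set with a median of -0.45, and from 0.15 to 0.65 in the low set with a median of 0.44. The sets were separated by a gap wider than the SD of either set, which was 0.12 in the high set and 0.16 in the low set. The difference was -0.89 log2 units (SE 0.07, adjusted p = 2.43e-07), and the split accounted for 94.4% of the sum of squares of Tnik within groups. It was nearly the same in each group, at -0.84 in lean control, -0.84 in obese, -0.86 in rosiglitazone and -1.01 in resveratrol rats.

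Angptl2, a secreted protein of the same family as Angptl4, ran from -0.995 to -0.23 in the high set with a median of -0.46, and from -0.08 to 1.06 in the low set with a median of 0.55. The relatives therefore moved in opposite directions between the sets, without overlap for Angptl2. The difference of Angptl2 was -1.05 (SE 0.13, adjusted p = 0.000133), a 2.07-fold change. Zfp503, a zinc finger gene, ran from -0.62 to -0.10 and from 0.14 to 0.72, with a difference of -0.73 (SE 0.09, adjusted p = 0.000122). Its sets were separate, although the mean level in the high set, 2.80, was close to the array medians.

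The enzymes among the lower genes included Neu2, a cytosolic sialidase, Galnt17, of the family that starts O-glycans, Tet1, which oxidises methylated cytosine, and Plcd4, a phospholipase C. Neu2 ran from -0.88 to -0.04 in the high set and from -0.33 to 1.05 in the low set, and its difference was -0.89 (SE 0.15, adjusted p = 0.00616). Galnt17 had a difference of -0.85 (SE 0.15, adjusted p = 0.00731), ranging over the groups from -1.41 in obese to -0.51 in rosiglitazone rats. For Tet1 the difference was -0.76 (SE 0.13, adjusted p = 0.00679). Plcd4 had a difference of -0.74 (SE 0.15, adjusted p = 0.0173) and lost its call without lean control 2 (adjusted p = 0.0556). All 4 genes had overlapping sets.

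Col6a6, a chain of collagen VI, ran from -0.75 to -0.12 in the high set and from -0.12 to 0.75 in the low set, so that the sets met at the edge. Its difference was -0.79 (SE 0.12, adjusted p = 0.00128). The mean level of Col6a6 in the high set, 2.85, was close to the array medians. Fibroblast and matrix markers also tended below 0, with 15 of 18 differences negative, a median of -0.16 and 0 called by limma, and 2 at an unadjusted p under 0.05. The mean level of that list was 4.99 to 5.89 on the high arrays and 4.73 to 5.92 on the low arrays. Tendon markers were negative in 7 of 7 cases with a median of -0.11 and 0 called, at levels of 2.24 to 2.84 and 2.07 to 3.02. The part of these cells in the differences was not tested.

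Cish, a feedback inhibitor of cytokine signalling, had a difference of -0.71 (SE 0.16, adjusted p = 0.0357), and Sec14l5 had one of -0.92 (SE 0.20, adjusted p = 0.0306). The mean level of Sec14l5 in the high set, 2.87, was close to the array medians. Neither the call of Cish nor that of Sec14l5 was firm. Leaving out single arrays took the adjusted p of Cish above the threshold for 12 of 20 arrays, to at most 0.112 without lean control 2, and that of Sec14l5 for 11 of 20 arrays, to at most 0.096 without rosiglitazone 2. Among called genes outside the rule, named after their values were seen, were Prkag3, the AMP kinase subunit of fast muscle, at -0.70 (SE 0.14, adjusted p = 0.0189), and Nrip1, a corepressor of nuclear receptors, at -0.59 (SE 0.10, adjusted p = 0.00655). The Prkag3 call was lost without rosiglitazone 2 (0.0579) or obese 1 (0.0518). A gene with the provisional symbol C8h3orf18, excluded by the rule, was separate between the sets with a difference of -0.92 (SE 0.11, adjusted p = 0.000133).

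**Figure D3:**
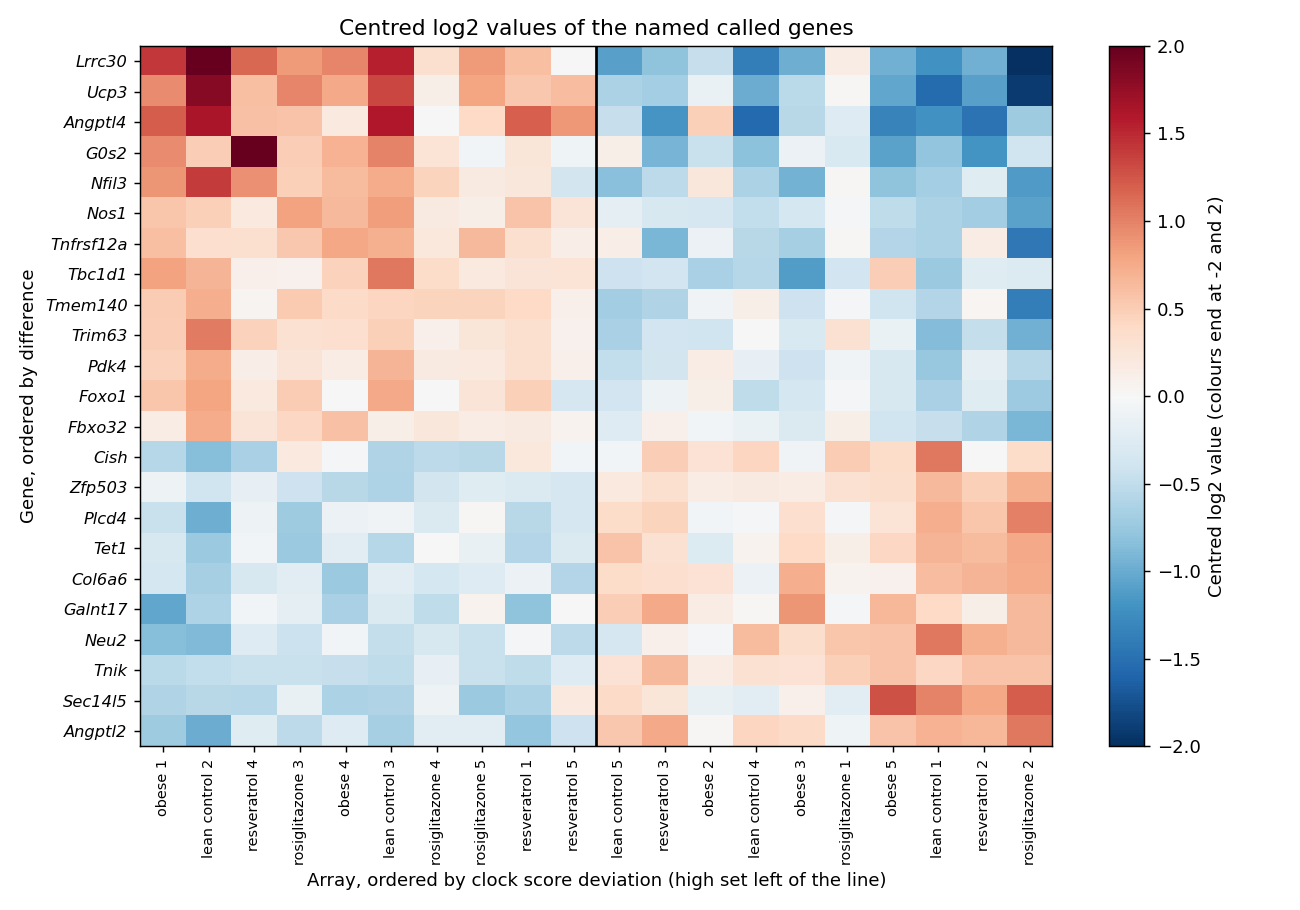
Centred log2 values of the 23 named called genes (rows, ordered by the difference) on the 20 arrays (columns, ordered by score deviation, high set left of the line); red is above and blue below the mean of the labelled group, with colours ending at -2 and 2. Lrrc30 on lean control 2, at 2.13, and on rosiglitazone 2, at -2.17, reaches beyond the scale.

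The E-box CACGTG was searched in the promoters of the called genes, since Bmal1 with its partners acts through it. A promoter was matched for 41 of the 48 higher genes and for 35 of the 39 lower genes, and the motif was in 2 of each, or 4.88% and 5.71%. In all tested genes with a promoter the share was 7.67%. The 4 windows are shown because these are the matched called genes that hold the motif, each with its position relative to the transcript start and 10 bases on either side. They lie at -232 in Asb2, chr6:128275867-128275892, minus strand, at -54 in Nceh1, chr2:112003613-112003638, at -19 in Neu2, chr9:95711959-95711984, and at -90 in Kcne4, chr9:87695948-87695973, the last 3 on the plus strand.
Asb2: atgatgacatCACGTGagtgccgaag
Nceh1: tgaggaggaaCACGTGaaagagcagc
Neu2: aaaaggctccCACGTGtcattccctg
Kcne4: cctcccggaaCACGTGacgatgcatt
Asb2 and Nceh1, which hydrolyses cholesteryl esters, were higher in the high set, and Neu2 and Kcne4, a potassium channel subunit, were lower. The motif thus stood in genes of both directions. Kcne4 had a difference of -0.56 (SE 0.13, adjusted p = 0.0467), and Nceh1 one of 0.42 (SE 0.08, adjusted p = 0.0157). The call of Nceh1 was lost without lean control 2 (0.0529), and that of Kcne4 without any of 15 single arrays, with an adjusted p of at most 0.12. The D-box was found in 1 called gene, Coq10b, on the minus strand at -244, and the ROR element in 0. In all tested genes with a promoter the shares were 0.798% and 0.458%, so these counts set the called genes apart in no way.

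The difference between the sets was then compared among the labelled groups. Of the 87 called genes, 86 had the same sign in all 4 groups, against 2414 of all genes, or 16.6%. The called genes were selected on the same contrast, so this count is a description. In 51 of the 87 called genes, and in 15 of the 23 named ones, the widest difference was that of the lean control group. The same count was not made over all genes, so this one is also a description. Pdk4 is an example chosen after its values were seen, at 1.18 in lean control against 0.45 to 0.53 in the other groups. Its adjusted p by limma's interaction test was 0.949. However, 0 genes, or 0%, had a difference that varied among the groups by limma's interaction test, for which the smallest adjusted p was 0.48. At an unadjusted p under 0.05 the interaction gave 751 genes against 727.5 expected. With 2 or 3 arrays per set and group, no variation of the effect among the groups was detectable.

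**Figure D4:**
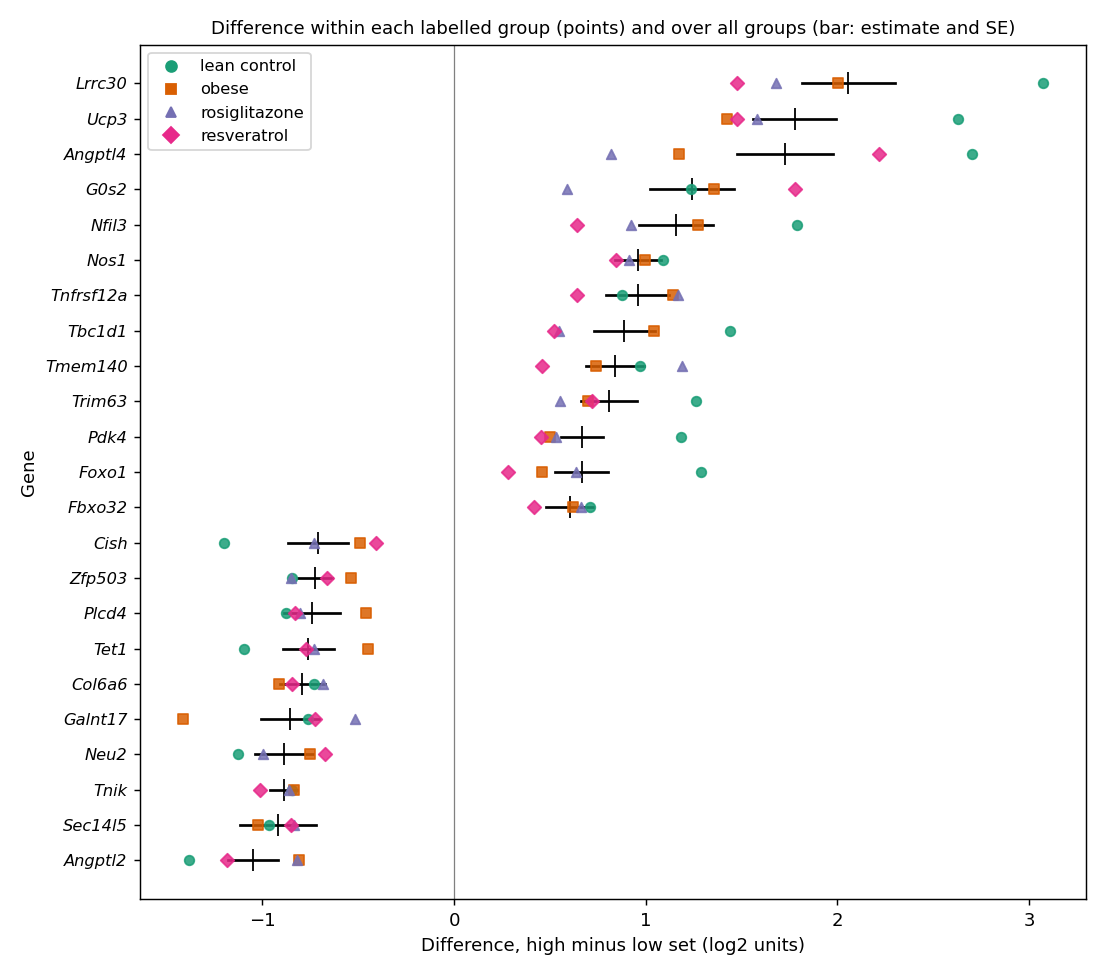
Difference of the high minus the low set in log2 units for the 23 named called genes: coloured points are the differences within each labelled group (2 or 3 arrays a set) and black bars are the estimates over all groups with their SE. Every coloured point of a gene lies on the same side of 0, from 0.28 for Foxo1 in resveratrol to 3.07 for Lrrc30 in lean control rats.

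Contractile and metabolic genes of the fibre served as a check of the tissue and of the composition of the sets. Fast fibre markers such as Myh4 and Actn3 had a mean level of 10.5 to 10.7 on high arrays and 10.5 to 10.8 on low arrays, far above the array medians of 2.46 to 2.55, and slow fibre markers such as Myh7 and Mb had 7.26 to 7.76 and 7.08 to 7.91. None of the 7 fast or 11 slow markers was called by limma, and 0 had an unadjusted p under 0.05. Median differences were -0.03 for the fast and -0.05 for the slow markers, with 6 of 7 and 9 of 11 differences negative. Oxidative phosphorylation gave 0 of 29 called, 0 with an unadjusted p under 0.05 and a median of 0.02, within a range of -0.07 to 0.11. Glycolysis and glycogen gave 0 of 11 called, 1 at an unadjusted p under 0.05 and a median of 0.04. For ribosomal proteins 0 of 18 were called, 0 had an unadjusted p under 0.05, and the median was -0.00.

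Proteasome subunits shared a small positive difference, with 20 of 21 above 0, a median of 0.09 and a range of -0.10 to 0.18. By limma 0 were called, with 2 at an unadjusted p under 0.05, which were Psmd11 (0.18) and Psmb4 (0.16). The heat shock and cold-induced list gave 0 of 16 called, 2 at an unadjusted p under 0.05, and a median of 0.05. Rbm3, an RNA-binding protein induced by cold, was at -0.22 (adjusted p = 0.63).

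Glucocorticoids rise and fall daily and also act on muscle, and their target genes were examined as a list. By limma 0 of 13 were called, while 5 were higher and 1 lower at an unadjusted p under 0.05. Over all 14550 genes 1288 passed that threshold, 689 of them higher. Fkbp5, a chaperone of the glucocorticoid receptor, had a difference of 0.70 (SE 0.18, adjusted p = 0.08), Ddit4, an inhibitor of mTOR signalling, one of 0.61 (SE 0.18, adjusted p = 0.172), and Zbtb16, a transcription factor, one of 0.48 (SE 0.12, adjusted p = 0.0896). The lower member was Mertk, at -0.21 (adjusted p = 0.54). Klf9 was at 0.02 (adjusted p = 0.98) and Tat at -0.10 (adjusted p = 0.87). The mean of Tat, 1.79 log2 units, was below the array medians. The list was mixed, with 8 of 13 differences positive and a median of 0.03.

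Lipid and cholesterol synthesis, which feeding and insulin are known to raise, had medians close to 0. For lipid synthesis, 8 of 11 differences were negative with a median of -0.06. Srebf1, the master regulator of the pathway, had the lowest, at -0.46 (SE 0.12, adjusted p = 0.0896). Scd was at 0.07, Acly at -0.01 and Elovl6 at -0.02. For cholesterol synthesis, 10 of 13 were negative with a median of -0.02. The lowest was Sqle, the squalene epoxidase, at -0.31 (SE 0.08, adjusted p = 0.079). By limma 0 genes of either list were called, with 2 and 4 at an unadjusted p under 0.05. Immediate early genes gave 0 of 18 called, 3 at an unadjusted p under 0.05, and a median of 0.10.

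Markers of other cells that the muscle could hold were summed up beside these results. Adipocyte markers, which bear on Angptl4 and G0s2, were positive in 9 of 14 cases with a median of 0.13, and 0 were called, with 4 at an unadjusted p under 0.05. Their mean level was 4.79 to 5.74 on high arrays and 4.56 to 5.48 on low arrays. The 4 were all positive, at 0.62 for Aqp7, 0.27 for Lep, 0.26 for Fabp4 and 0.22 for Plin1, with adjusted p-values of 0.363, 0.531, 0.317 and 0.558. Adipoq, which also marks adipocytes, was at 0.12 (adjusted p = 0.94). Endothelial and pericyte markers had a median of 0.10 with 0 of 12 called and 3 at an unadjusted p under 0.05, at levels of 5.03 to 5.29 and 4.85 to 5.23. Macrophage and leukocyte markers were positive in 14 of 17 cases with a median of 0.08, 0 called and 1 at an unadjusted p under 0.05, at 2.74 to 3.40 and 2.82 to 2.95, and 8 of the 17 were below the array medians. Erythroid, nerve and satellite cell markers gave 0 of 5, 0 of 6 and 0 of 8 called, with 0, 0 and 1 at an unadjusted p under 0.05 and medians of 0.05, 0.02 and 0.06. The levels given here were not centred on the group mean. The levels of all these lists overlapped between the sets, both uncentred and centred, and their part in the differences was not tested.

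**Figure D5:**
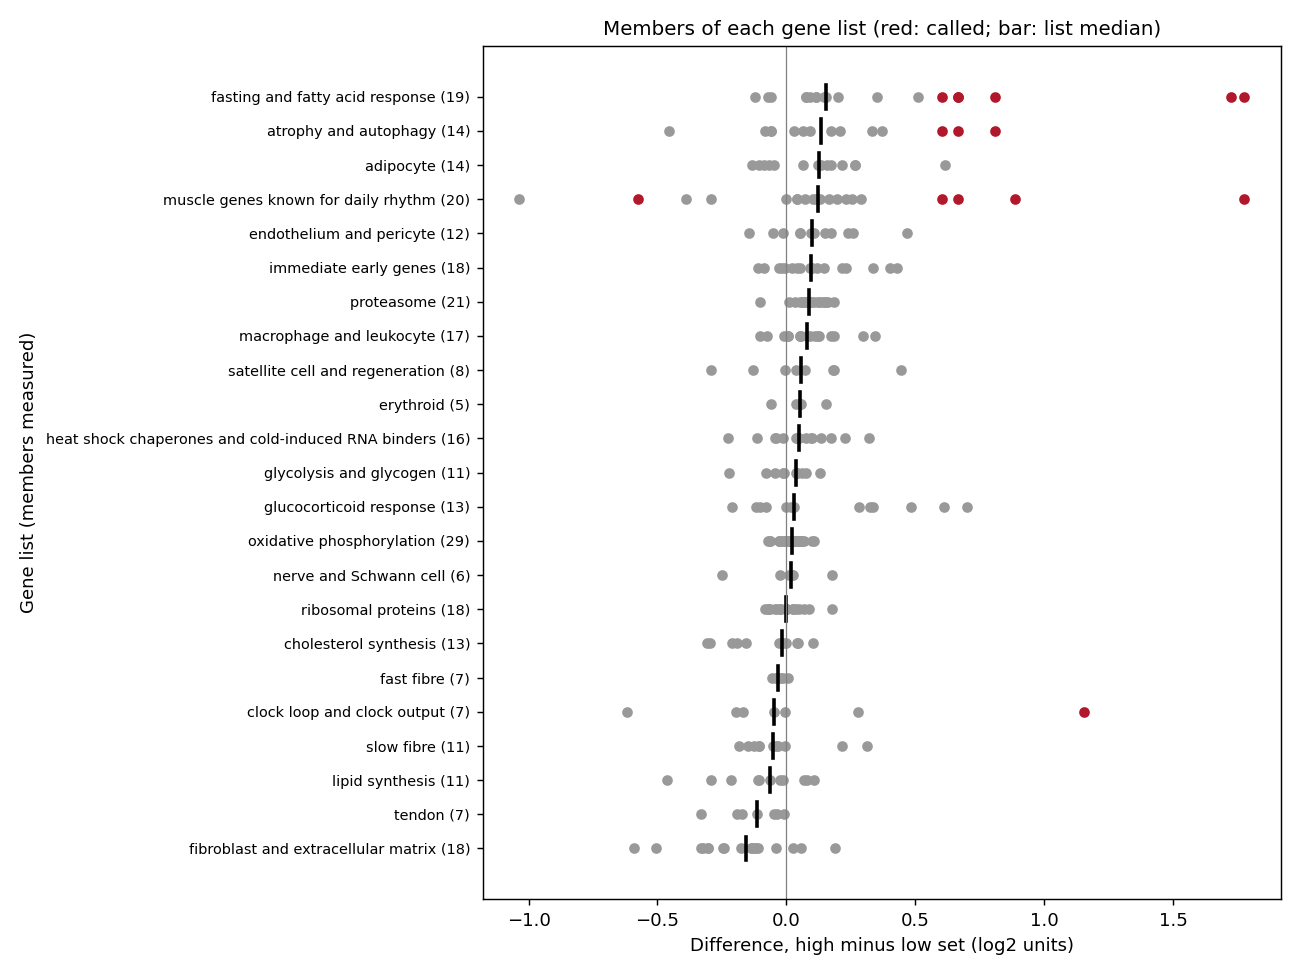
Difference of the high minus the low set in log2 units for every measured member of the 23 gene lists; red points are called genes, black bars are list medians, and the number of measured members follows each name. Red points stand in 4 lists, with the widest at 1.78 for Ucp3.

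The score split was also set beside the main direction of variation within groups. Principal components were taken over 8426 brighter genes, centred per group and without the score genes, and the leading component held 13.1% of the variance. High arrays ran from 2.05 to 11.8 on it and low arrays from -13.2 to 1.01, with medians of 5.54 and -6.54, so the sets did not overlap. On the second component, with 9.15% of the variance, and on the third, with 7.65%, they did. The genes of the component were measured on the same arrays as the score, so this is a description of the arrays.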

How the data were processed

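Total RNA of red tibialis anterior, 100 ng per array, was labelled with biotin and hybridised to Affymetrix arrays. The authors deposited log2 values normalised by RMA, as the labels name it, with preprocessing in the affy and oligo packages. RMA subtracts background, gives arrays the same distribution and summarises probes, so the values are relative and low values are compressed. No scanner file was used here, and precision is limited by the 20 arrays.

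Of 36685 rows, 14824 had 1 gene symbol in the platform annotation, 829 had several and 21032 had none. The brightest row was kept for 234 genes with more than 1 row, which left 14557 genes. The 7 score genes were left out of the tests, so 14550 were tested. Within groups, arrays correlated at 0.964 to 0.974, and 0 pairs were identical. The model in limma 3.58.1 (R 4.3.3) held the 4 labelled groups and the high or low set, with 15 residual degrees of freedom. Because the sets were unequal within groups, differences of centred means equal 0.96 times the fitted differences. The median half-width of the 95% interval of a difference was 0.20 log2 units. On simulated data with 200 of 14550 genes changed for this comparison, 86.4% of 1.5-fold and 99.1% of 2-fold changes were recovered, with 4.99% false calls. The simulated noise was normal and drawn separately for each gene, and each change was the same in every group. Variation that genes share on the real arrays was not imitated, so these shares hold for the simulated setting only.

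The split, the gene lists and the tests were chosen with earlier results of these data known. Named genes were all measured members of the clock list, the 10 highest and 10 lowest differences among called genes without provisional symbols, and up to 4 called members of each other list by smallest p. These were 29 genes, of which 23 were called. The lists named 430 genes, and 304 were measured. Alternatives were a continuous score, other ways of splitting, another choice of rows, other normalisations, a block for replicate number and omission of each array or group.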

Additional observations from a re-analysis of the deposited data

Results flagged for a closer look

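Of 62 sets or groups of values examined for a single distant array among the named genes, 3 held one, and chance gives about 1 in 20. G0s2 on resveratrol 4 stood at a centred value of 1.99 in the high set, far above the next array. Trim63 on lean control 2 stood at 1.05 in the high set, and Cish on lean control 1 stood at 1.06 in the low set. G0s2 and Trim63 were called in each of the 20 omissions of 1 array, with adjusted p-values of at most 0.0264 and 0.0248, whereas the call of Cish was lost when any of 12 arrays was omitted. The cause of these values was not tested.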

How the results depend on the processing

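The count of 87 called genes depended on which arrays entered. It was 38 without lean control 2, 53 without lean control 3 and 49 without rosiglitazone 2, and 38 to 117 over all 20 omissions of 1 array. It was 11 without the lean control group, 25 without the obese group, 57 without the rosiglitazone group and 39 without the resveratrol group. Of the 87 genes, 33 were called in every omission of 1 array, as were 18 of the 23 named ones. Of the 23 named calls, 9 held without the lean control, 13 without the obese, 18 without the rosiglitazone and 17 without the resveratrol group. With the 2 highest against the 2 lowest arrays per group, 49 genes were called, and 39 genes were called when all rows were tested. The continuous score called 123 genes, 75 of them shared with the 87. The clock list fell from 1 called gene to 0 without the lean control group.

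The labels number replicates within each group. Arrays with the same number in different groups did not deviate together (30 pairs, r from -0.168 to 0.0644, median -0.0147). Of 20 arrays, 2 correlated best with their own number, so these values gave no sign of pairing by number. Whether same-numbered rats were matched in some other way was not tested. With the replicate block, 56 genes were called, 50 of them among the 87, and Sec14l5, Plcd4 and Fbxo32 were not, with adjusted p-values of 0.107, 0.0612 and 0.0976.

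Cry2 and Tob1, neither of them called, changed sign. Cry2 was -0.05 and became 0.032 without the rosiglitazone group. Tob1 was -0.01 and became 0.0342 with the replicate block, 0.0304 without the lean control group and 0.0037 without the rosiglitazone group. Over the omissions of 1 array it ran from -0.0419 without rosiglitazone 5 to 0.0385 without rosiglitazone 4.

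The interaction called 0 genes. Of the 87 called genes, 4 had a mean below the highest array median, and no signal over background was used here.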
